A study of Mus musculus with 10 samples.

Results

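Neural progenitor and neuron markers were followed in mouse embryonic stem cells (mESCs) that lack a subunit of MiDAC, the mitotic deacetylase complex. The markers are 9 genes taken by name, with earlier results of these data known: *Nes*, *Msi1*, *Sox1*, *Sox3*, *Sox11*, *Pax6*, *Hes5*, *Tubb3* and *Map2*. All 9 were found among the 34591 genes of the expression table, 8 under these symbols and *Map2* (ENSMUSG00000015222) under its older symbol *Mtap2*. The cells were male C57/BL6 Bruce-4 mESCs, either WT or edited with CRISPR/Cas9 to knock out (KO) *Dnttip1* (clones D2A7 and D1E6) or *Elmsan1* (clones E2E8 and E2G7). All lines grew in 2iL, a defined medium with LIF, the GSK3β inhibitor CHIR 99021 and the MEK inhibitor PD 0325901 that holds mESCs in the naive state, so no line had been directed to differentiate. Total RNA was sequenced in 2 libraries of each line, 10 in all, so each KO line is a single clone, and p-values measure only the spread between these libraries. The sample labels and the series description number the *Dnttip1* KO clones differently, so clones are given by their codes. The comparisons ask whether the loss of a MiDAC subunit changed these markers before differentiation.

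MiDAC joins the histone deacetylases HDAC1 and HDAC2 to the scaffolds DNTTIP1 and ELMSAN1, and removes acetyl groups from histones at promoters and enhancers. In the embryo, pluripotent cells become neural progenitors that carry the intermediate filament NESTIN, the RNA-binding protein MUSASHI1 and the transcription factors SOX1, SOX3 and PAX6, while HES5, a target of NOTCH, delays their differentiation. Neurons then turn on SOX11 and build axons and dendrites with the β-tubulin TUBB3, the antigen of the antibody TUJ1, and the dendritic protein MAP2. Several of these genes are also transcribed at a lower level outside the nervous system, which is why levels are given here beside each difference.

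Upstream sequences are shown for 4 markers: *Nes* and *Map2*, which moved in opposite directions, *Tubb3*, which split the *Elmsan1* KO clones, and *Hes5*, which was at the limit of detection. Each is the 250 bases before the RefSeq transcript start in build GRCm38.p6, read 5′ to 3′ on the strand of the gene, with matches to any of 8 short motifs in capitals. The motifs, searched on both strands and without overlapping matches here, were the POU octamer ATGCAAAT, the SOX motifs ACAAAG and ACAATG, the cAMP response element TGACGTCA, the RBPJ motif TGGGAA of NOTCH targets, the CCAAT box CCAAT, the GC box GGGCGG and the TATA motif TATAAA.
*Nes*, chr3:87970843-87971092, + strand: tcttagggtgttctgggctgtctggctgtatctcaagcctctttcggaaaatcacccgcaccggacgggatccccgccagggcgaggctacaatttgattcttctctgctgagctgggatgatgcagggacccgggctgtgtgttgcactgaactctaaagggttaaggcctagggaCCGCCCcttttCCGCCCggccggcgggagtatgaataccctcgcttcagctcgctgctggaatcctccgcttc
*Map2*, chr1:66175079-66175328, + strand: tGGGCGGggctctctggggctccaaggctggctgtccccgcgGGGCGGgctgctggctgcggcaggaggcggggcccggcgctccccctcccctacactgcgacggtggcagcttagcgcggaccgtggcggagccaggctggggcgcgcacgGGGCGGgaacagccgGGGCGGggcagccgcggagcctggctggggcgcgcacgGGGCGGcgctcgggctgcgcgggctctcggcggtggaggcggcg
*Tubb3*, chr8:123411303-123411552, + strand: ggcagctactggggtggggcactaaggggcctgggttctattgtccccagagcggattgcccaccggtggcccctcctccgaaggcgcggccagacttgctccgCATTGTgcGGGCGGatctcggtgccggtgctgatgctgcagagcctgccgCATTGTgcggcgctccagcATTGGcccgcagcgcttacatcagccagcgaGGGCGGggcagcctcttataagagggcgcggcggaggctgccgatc
*Hes5*, chr4:154960673-154960922, + strand: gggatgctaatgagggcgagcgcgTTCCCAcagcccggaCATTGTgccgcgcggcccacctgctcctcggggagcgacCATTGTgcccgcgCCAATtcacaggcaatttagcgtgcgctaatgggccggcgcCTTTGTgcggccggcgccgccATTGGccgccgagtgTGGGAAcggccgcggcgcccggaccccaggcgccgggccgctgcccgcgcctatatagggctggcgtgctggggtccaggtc

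The windows of *Nes* and *Map2* held GC boxes only, 2 for *Nes* and 5 for *Map2*, and this motif was in 32.7% of 32851 promoter windows of the same length. *Tubb3* had 2 GC boxes, a CCAAT box (33.8% of windows) and 2 matches to ACAATG (10.7%). *Hes5* had 2 matches to the RBPJ motif (21.6%), 2 CCAAT boxes, 2 matches to ACAATG and 1 to ACAAAG (16.5%). None of these 4 windows held the POU octamer (1.6%), the cAMP response element (1.5%) or TATAAA (12.4%). GC content was 58.8% for *Nes*, 81.2% for *Map2*, 68% for *Tubb3* and 71.6% for *Hes5*, against a median of 52.4% over all windows. Windows were found for 7 of the 9 markers, and those of *Sox1*, *Sox11* and *Pax6* are not printed. Such matches describe the letters only.

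Between 30182379 and 84291842 fragments per library lay on annotated genes, as recovered from the deposited FPKM (fragments corrected for exon length and library total). The targeted genes were checked first. *Dnttip1* was at 8.35 and 8.45 FPKM in WT, 4.55 and 4.57 in D2A7, and 2.58 and 2.60 in D1E6. *Elmsan1* was at 5.34 and 5.73 FPKM in WT, 4.89 and 5.13 in E2E8, and 4.62 and 4.75 in E2G7, so this transcript differed little and its RNA level alone is a weak check of the *Elmsan1* label. All 12 pluripotency genes were expressed in every line, with *Pou5f1*, *Nanog* and *Sox2* at 307, 325 and 186 FPKM in WT. In *Dnttip1* KO and *Elmsan1* KO, 0 of 12 were called by limma or by voom. An unadjusted p under 0.05 was found for 8 and 7, and for at least 9.47% and 10.5% of all genes. Set singly against WT, 1 was called in each of D2A7, D1E6 and E2G7 (17.1%, 11.7% and 10.7% of all genes). In E2E8, 0 were called (17%). Under an adjusted p of 0.05 were 11 in D2A7 (52% of all genes), 10 in D1E6 (43.9%), 9 in E2E8 (55.2%) and 10 in E2G7 (41.8%). Of 8 fibroblast genes, 7 stayed under 0.1 FPKM in all libraries, and so did the neuronal gene *Dcx*. Bulk RNA cannot tell fewer expressing cells from less RNA per cell, which holds for every value that follows.

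The 9 markers covered more than 3 orders of magnitude of length-corrected level. Averaged over all 10 libraries, *Tubb3* stood at 69.2 FPKM, *Sox11* at 12.03, *Nes* at 8.07, *Msi1* at 4.06 and *Map2* at 1.01. *Sox1* followed at 0.432 FPKM, then *Sox3* at 0.0777, *Hes5* at 0.0323 and *Pax6* at 0.0131. The abundant markers were thus cytoskeletal and RNA-binding proteins and a SOXC factor. The average of *Sox1* was above the limit of 0.1 FPKM used for testing, and those of *Sox3*, *Hes5* and *Pax6* were under it.

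**Figure D1:**
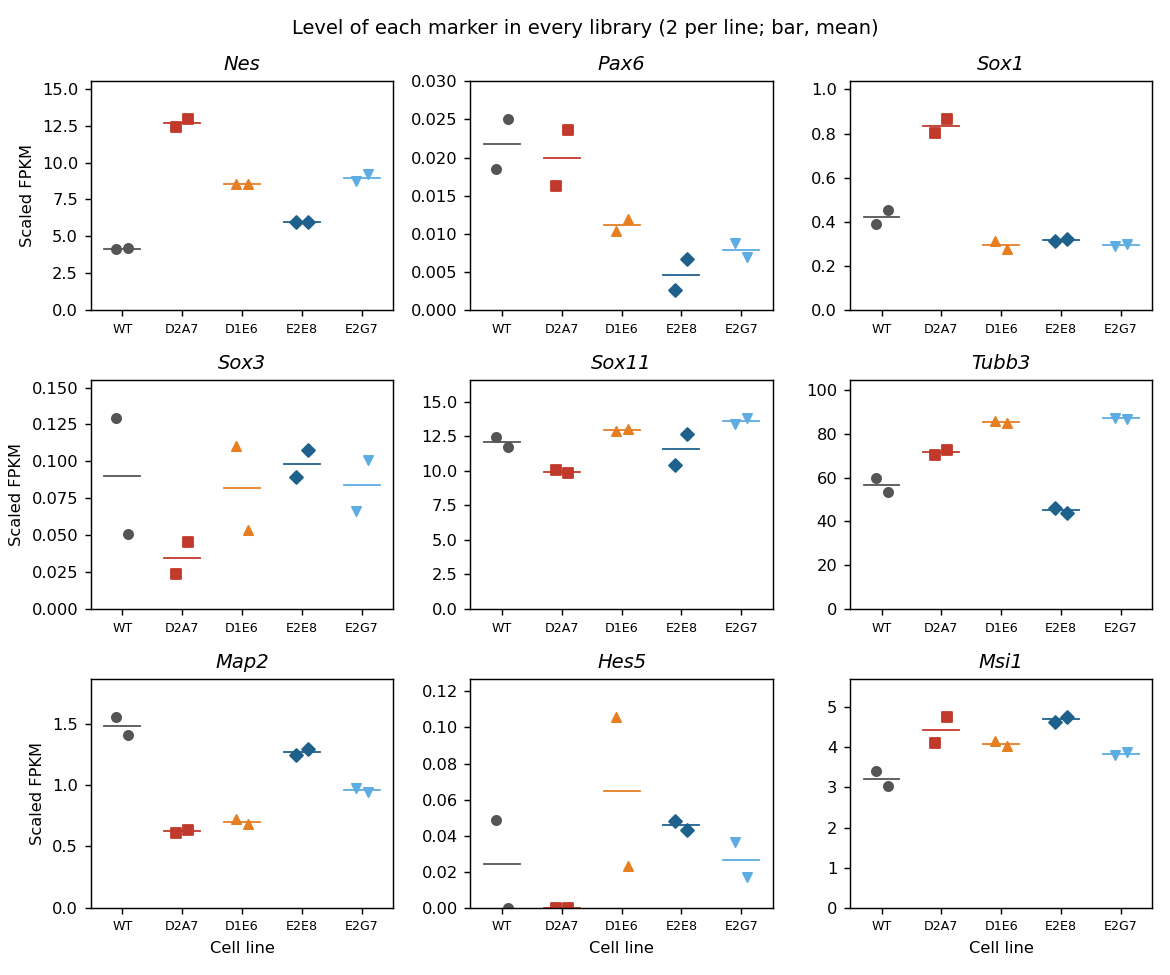
Scaled FPKM (vertical axes, linear from 0, a separate scale per gene) of the 9 markers in every library of WT, of *Dnttip1* KO (D2A7, D1E6) and of *Elmsan1* KO (E2E8, E2G7) (points, libraries; bars, means of 2). *Nes* is lowest in WT (4.14 and 4.19) and highest in D2A7 (12.4 and 12.9), *Map2* is highest in WT, and the *Tubb3* points of E2E8 lie below all others.

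A gene entered a comparison if 2 or more of its libraries had 0.1 FPKM or more, differences were taken on the log2(FPKM + 0.1) scale, and a gene was called where the fold change was at least 1.5 and the unadjusted p under 0.01. In both comparisons of a KO with WT, 7 of the 9 markers were tested, and *Pax6* and *Hes5* were not. In *Dnttip1* KO, with both clones pooled, 2 of 7 markers were called, against 6.51% of all 17434 genes tested, of which 3.26% were higher and 3.25% lower. The called markers were *Nes*, higher, and *Map2*, lower. With the adjusted p held under 0.05 and no minimum fold change there were 3 markers, with *Tubb3* added, against 9.47% of all genes. By voom, 2 markers had an adjusted p under 0.05. In *Elmsan1* KO, 1 of 7 markers was called, *Nes*, higher, against 6.43% of all 17212 genes tested (2.74% higher and 3.68% lower). At an adjusted p under 0.05 there were 0 of 7 markers against 10.5% of all genes. At an unadjusted p under 0.05 there were 2 markers, and voom called 0. For counts at an unadjusted p, here and below, the share of all genes is at least that at the adjusted p. The median log2 difference over the tested markers was 0.22 in *Dnttip1* KO and 0.05 in *Elmsan1* KO, against 0.02 and 0.00 over all genes tested. Both comparisons share the WT libraries.

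Each clone was also set against WT in a single fit over the 10 libraries. In D2A7, 3 of 6 tested markers were called (17.1% of all genes) and 6 of 6 had an adjusted p under 0.05 (52% of all genes). In D1E6, 3 of 7 were called (11.7%) and 5 had an adjusted p under 0.05 (43.9%). In E2E8, 0 of 7 were called by limma (17%) and 3 had an adjusted p under 0.05 (55.2%). An unadjusted p under 0.05 was found for 5, and for at least 55.2% of all genes. In E2G7, 2 of 7 were called (10.7%) and 5 had an adjusted p under 0.05 (41.8%). The share of all genes past the adjusted threshold was so large within clones that the markers' own shares must be read against it.

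**Figure D2:**
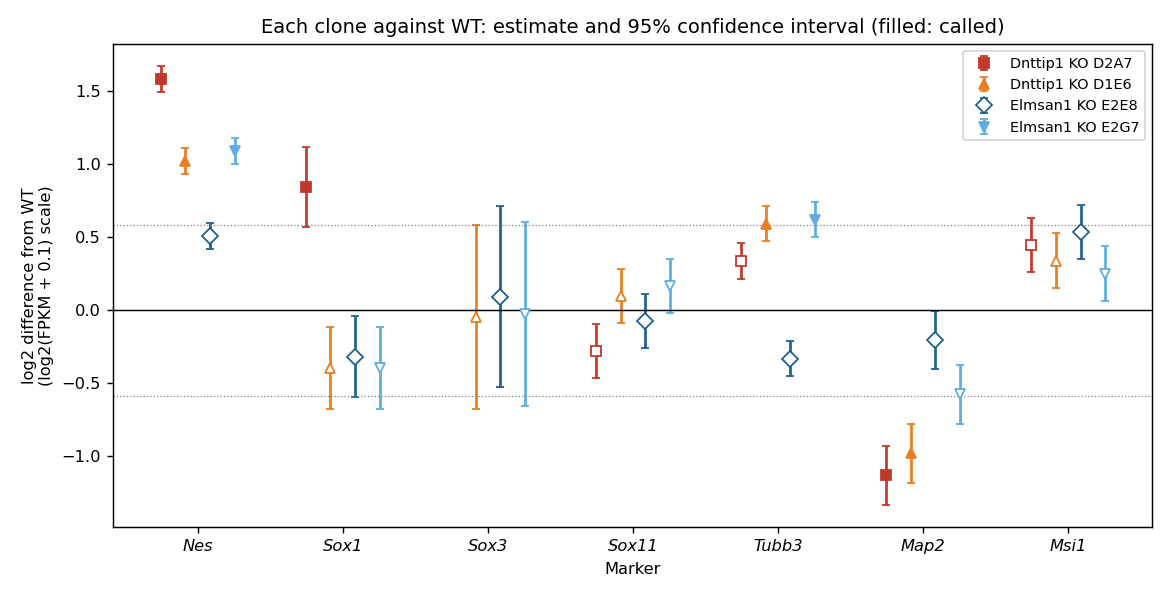
Difference of each KO clone from WT on the log2(FPKM + 0.1) scale (vertical axis) for the 7 tested markers, with 95% confidence intervals; filled symbols are called and dotted lines mark a fold change of 1.5. *Nes* lies above 0 in all 4 clones (0.51 to 1.58), *Map2* lies below 0, and *Sox1* and *Tubb3* have clones on both sides.

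*Nes* (ENSMUSG00000004891) encodes NESTIN, the intermediate filament of neural stem cells. It lies on the + strand of chromosome 3 in build NCBIM37, from 87775000 to 87784373, with no other annotated gene across it. The WT libraries were at 4.14 and 4.19 FPKM. D2A7 was at 12.4 and 12.9 FPKM and D1E6 at 8.58 and 8.55. E2E8 was at 5.97 and 5.95 FPKM and E2G7 at 8.75 and 9.22. All 8 KO libraries were above both WT libraries, and the lines came in the order WT, E2E8, D1E6, E2G7 and D2A7 without overlap between neighbours.

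In *Dnttip1* KO, *Nes* rose 2.47-fold (log2 difference 1.30 ± 0.20 SE, adjusted p = 0.0178). Its adjusted p did not stay under 0.05 in every fit that left out a single library. In *Elmsan1* KO *Nes* was called at 1.74-fold (0.80 ± 0.21 SE), although its adjusted p was 0.0636. That call was lost without either WT library (0.79 and 0.81) and without either E2G7 library (0.71 and 0.69), and with the replicate block, where the adjusted p was 0.128. Against WT, single clones differed by 1.58 in D2A7 (adjusted p = 4.7e-07), 1.02 in D1E6 (2.88e-06), 0.51 in E2E8 (3.08e-05) and 1.09 in E2G7 (2.43e-06), all on the log2 scale. E2E8 passed the adjusted threshold but at 1.42-fold was not called. The counts behind these values were large, with 797 to 5118 fragments per library.

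*Msi1* (ENSMUSG00000054256) encodes MUSASHI1, an RNA-binding protein that keeps neural progenitors undifferentiated, and lies on the + strand of chromosome 5 (NCBIM37, 115879608 to 115905707). The WT libraries were at 3.41 and 3.03 FPKM. D2A7 was at 4.10 and 4.75, D1E6 at 4.17 and 4.02, E2E8 at 4.64 and 4.76, and E2G7 at 3.81 and 3.87 FPKM. Every KO library was above both WT libraries, yet no comparison called *Msi1*. The log2 difference was 0.39 in *Dnttip1* KO (SE 0.10, adjusted p = 0.0649) and 0.39 in *Elmsan1* KO (SE 0.13, adjusted p = 0.107). By clone it ranged from 0.25 in E2G7 (adjusted p = 0.0375) to 0.54 in E2E8 (adjusted p = 0.000871), which is 1.45-fold. Without WT replicate 1 the E2E8 value became 0.62 and was called.

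Among the SOX factors, *Sox11* and *Sox1* gave usable counts. *Sox11* (ENSMUSG00000063632, − strand of chromosome 12, NCBIM37, 28025562 to 28027574) encodes a SOXC factor of newborn neurons. It was at 12.5 and 11.7 FPKM in WT, 10.1 and 9.81 in D2A7, 12.9 and 13.01 in D1E6, 10.4 and 12.7 in E2E8, and 13.4 and 13.8 in E2G7. The KO values lay on both sides of WT, and the log2 differences were −0.09 in *Dnttip1* KO (adjusted p = 0.719) and 0.05 in *Elmsan1* KO (adjusted p = 0.827). Their 95% confidence intervals ran from −0.44 to 0.26 and from −0.24 to 0.34. Only D2A7 differed from WT at an adjusted p under 0.05 (−0.28, adjusted p = 0.0195), and both its libraries were below all the others.

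*Sox1* encodes a SOXB1 factor and is the earliest specific marker of the neural plate. Its row carries the RefSeq identifier NM_009233, and RefSeq places the gene on chromosome 8. The WT libraries were at 0.388 and 0.453 FPKM, from 47 and 70 fragments. D2A7 was at 0.801 and 0.865 FPKM, D1E6 at 0.312 and 0.278, E2E8 at 0.312 and 0.322, and E2G7 at 0.289 and 0.301. D2A7 was above every other library, whereas the remaining 3 clones were below both WT libraries and lay within 0.278 to 0.322 FPKM. Against WT, *Sox1* rose 1.79-fold in D2A7 (log2 difference 0.84 ± 0.12 SE, adjusted p = 0.000725). In the other clones it differed by −0.40 (D1E6, adjusted p = 0.0302), −0.32 (E2E8, adjusted p = 0.0535) and −0.40 (E2G7, adjusted p = 0.0315), with no call. Pooled by genotype, the clones of *Dnttip1* KO pulled apart and the log2 difference was 0.22 ± 0.46 SE (adjusted p = 0.788), and in *Elmsan1* KO it was −0.36 ± 0.16 SE (adjusted p = 0.204).

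*Sox3*, *Pax6* and *Hes5* were at the limit of detection. *Sox3* (ENSMUSG00000045179), a further SOXB1 gene on chromosome X (NCBIM37, − strand, 58144545 to 58146605), had 3 to 18 fragments per library. Its levels were 0.129 and 0.0507 FPKM in WT, 0.0234 and 0.0455 in D2A7, 0.110 and 0.0538 in D1E6, 0.0892 and 0.107 in E2E8, and 0.0663 and 0.101 in E2G7. These ranges overlapped, except that both D2A7 libraries were below all others, and the log2 differences from WT were −0.26 in *Dnttip1* KO and 0.03 in *Elmsan1* KO (adjusted p = 0.629 and 0.945). A difference in *Sox3* was not detectable at this depth.

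*Pax6* (ENSMUSG00000027168), a paired-box factor of forebrain and eye progenitors, lies on the + strand of chromosome 2 (NCBIM37, 105509053 to 105543317). It had 4 to 25 fragments per library. It was at 0.0185 and 0.0250 FPKM in WT, 0.0162 and 0.0237 in D2A7, 0.0104 and 0.0120 in D1E6, 0.00265 and 0.00670 in E2E8, and 0.00877 and 0.00700 in E2G7. The *Elmsan1* KO libraries were below all *Dnttip1* KO and WT libraries. In an exact two-sided permutation test, p was 0.0286 between the knockouts, the smallest that 4 against 4 libraries can give, and 0.0667 between *Elmsan1* KO and WT, the smallest for 4 against 2. Adjusted over the 27 such tests of 9 markers and 3 comparisons, both exact values became 0.225. The test exchanged single libraries as if independent, although libraries of a clone are not, so it does not measure the spread between clones. The opposite strand carries *Elp4* at 2.91 to 3.51 FPKM across the gene, and whether counting used the strand is not given in the sources used here, so a few *Elp4* fragments cannot be told apart from *Pax6*.

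*Hes5* (ENSMUSG00000048001), a repressor induced by NOTCH, lies on chromosome 4 (NCBIM37, + strand, 154335032 to 154336480) and had 0 to 7 fragments per library. It was at 0.0489 and 0 FPKM in WT, 0 and 0 in D2A7, 0.106 and 0.0232 in D1E6, 0.0482 and 0.0433 in E2E8, and 0.0365 and 0.0170 in E2G7. A count of 0 allows up to 3 fragments, which is 0.0354 and 0.0414 FPKM in the D2A7 libraries and 0.0580 in the WT library, so D2A7 cannot be placed below the others. The limit covers counting error only.

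Of the neuronal cytoskeletal markers, *Tubb3* (ENSMUSG00000062380), the β-tubulin of neurons, was the most abundant of all 9. It lies on the + strand of chromosome 8 (NCBIM37, 125935324 to 125945915). WT was at 60.0 and 53.4 FPKM. D2A7 was at 70.5 and 72.6 FPKM, and D1E6 at 85.7 and 85.1. E2E8 was at 46.1 and 43.9 FPKM, and E2G7 at 87.3 and 87.0. D2A7, D1E6 and E2G7 lay above both WT libraries and E2E8 lay below them, while D1E6 and E2G7 were the closest neighbours in level.

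In *Dnttip1* KO, *Tubb3* was 1.38-fold above WT (log2 difference 0.46 ± 0.11 SE, adjusted p = 0.0482), under the fold change needed for a call. Leaving out single libraries gave 0.38 to 0.55, and the adjusted p was then above 0.05 in each fit. In *Elmsan1* KO the log2 difference was 0.15 ± 0.33 SE (adjusted p = 0.811), an average over clones of opposite direction. By clone, *Tubb3* rose 1.51-fold in D1E6 (0.59, adjusted p = 8.96e-05) and 1.54-fold in E2G7 (0.62, adjusted p = 7.71e-05). These 2 calls were lost without WT replicate 2, at 0.51 and 0.54. D2A7 differed by 0.34 (adjusted p = 0.00120) and E2E8 by −0.33 (adjusted p = 0.00118) without a call.

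*Map2* (ENSMUSG00000015222) encodes a microtubule-associated protein of dendrites and lies on the + strand of chromosome 1 (NCBIM37, 66221847 to 66489157). WT was at 1.56 and 1.41 FPKM. D2A7 was at 0.611 and 0.634 FPKM and D1E6 at 0.724 and 0.680. E2E8 was at 1.25 and 1.30 FPKM and E2G7 at 0.977 and 0.946. WT was the highest line, the lines fell in the order WT, E2E8, E2G7, D1E6 and D2A7, and no neighbours overlapped.

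*Map2* fell 2.08-fold in *Dnttip1* KO (log2 difference −1.05 ± 0.13 SE, adjusted p = 0.00999). Without single libraries the difference was −1.12 to −0.99, and its adjusted p was not under 0.05 in every such fit. In *Elmsan1* KO *Map2* was at −0.39 ± 0.17 SE (adjusted p = 0.203) and was not called. By clone it fell by 1.13 in D2A7 (adjusted p = 3.42e-05) and by 0.98 in D1E6 (adjusted p = 8.74e-05) on the log2 scale. E2G7 differed by −0.57 (adjusted p = 0.00132), just short of the 1.5-fold threshold, and E2E8 by −0.20 (adjusted p = 0.0790). Without WT replicate 2 or E2G7 replicate 1, the E2G7 difference became −0.64 and −0.60 and was called. A pseudocount of 1 reduced the pooled *Dnttip1* KO difference to −0.58, where *Map2* was no longer called.

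Set directly against each other, the knockouts differed in 1 of 7 tested markers, against 1.52% of all 17588 genes, and 0 of 7 had an adjusted p under 0.05 (0.0341% of all genes). The marker was *Map2*, 1.59-fold lower in *Dnttip1* KO than in *Elmsan1* KO (−0.67 ± 0.14 SE), with no overlap between the 4 libraries of each, at 0.611 to 0.724 and 0.946 to 1.30 FPKM. Its adjusted p over all genes was 0.263, and with the correlation within clones estimated (0.856) it was not called. *Nes* was 1.42-fold higher in *Dnttip1* KO (0.50, 95% confidence interval 0.05 to 0.96, adjusted p = 0.301) with overlapping libraries. For *Msi1* the difference was 0.00 with an interval from −0.23 to 0.23.

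*Nes* and *Map2* ran in opposite directions along the 5 lines. Over the 10 libraries, Pearson's r of their log2 levels was −0.93, which is a description, since the 2 libraries of a line are near copies and there are only 5 lines. Other pairs were looser, with r = 0.63 for *Nes* and *Tubb3*, −0.68 for *Tubb3* and *Map2*, 0.53 for *Nes* and *Msi1*, and −0.82 for *Sox1* and *Sox11*. D2A7, with the highest *Nes*, also had the lowest *Map2* and the highest *Sox1*.

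**Figure D3:**
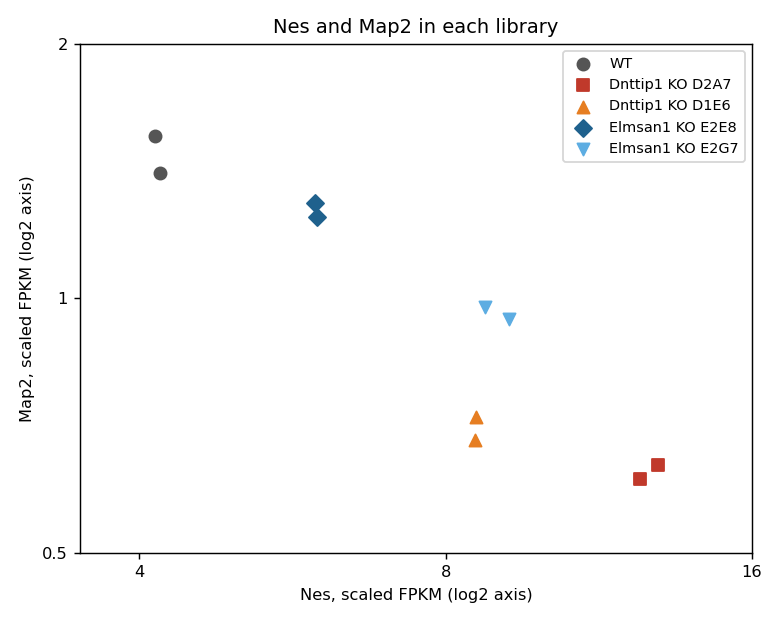
Scaled FPKM of *Nes* (horizontal, log2 axis) and *Map2* (vertical, log2 axis) in each of the 10 libraries, with symbols by line. The points run from WT at upper left (4.14 and 4.19 for *Nes*, 1.56 and 1.41 for *Map2*) to D2A7 at lower right (12.4 and 12.9, 0.611 and 0.634).

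Clones of the same knockout differed from each other. Between D2A7 and D1E6, 1 of 6 tested markers was called, against 12.9% of all genes, and 4 had an adjusted p under 0.05, against 40.8%. *Sox1* was 2.36-fold higher in D2A7 (log2 difference 1.24 ± 0.13 SE, adjusted p = 0.00305). *Nes* was higher in D2A7 by 0.56 (adjusted p = 0.00105), *Sox11* lower by 0.38 (log2 difference −0.38, adjusted p = 0.00221) and *Tubb3* at −0.26 (adjusted p = 0.00391). Between E2E8 and E2G7, 1 of 7 was called, against 13.7%, and 4 had an adjusted p under 0.05, against 50.7%. *Tubb3* was 1.93-fold lower in E2E8 (−0.95 ± 0.03 SE, adjusted p = 0.000503). *Nes* was at −0.58 (adjusted p = 0.00111), 1.498-fold lower in E2E8 and just under the threshold. *Map2* was higher in E2E8 at 0.37 (adjusted p = 0.0186) and *Msi1* at 0.28 (adjusted p = 0.00753). Without D2A7 replicate 1, E2E8 replicate 1 or E2G7 replicate 1, the clone difference in *Nes* passed the threshold, at 0.59, −0.59 and −0.62.

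*Tubb3* and *Sox1* lie on chromosome 8, which stood above WT as a whole in every KO clone. Over its 672 genes that averaged 1 FPKM or more, the median log2 difference from WT was 0.37 in D2A7, 0.37 in D1E6, 0.35 in E2E8 and 0.36 in E2G7, against 0.00, 0.00, 0.01 and 0.00 over all 12215 such genes. With each chromosome centred on its own median, *Tubb3* in D2A7 moved from 0.34 to −0.03, in D1E6 to 0.23 and in E2G7 to 0.27, and none of these was called. Its pooled difference in *Dnttip1* KO moved from 0.46 to 0.10 (adjusted p = 0.592). In E2E8, *Tubb3* moved to −0.70 (adjusted p = 2.22e-05) and was called, lower. *Sox1* moved to 0.47 in D2A7, where its call was lost, and to −0.76, −0.69 and −0.75 in D1E6, E2E8 and E2G7, where it was called, lower. On this scale *Sox1* was also called in the pooled *Elmsan1* KO (−0.71, adjusted p = 0.0512). The part of the chromosome-wide shift in the values of *Tubb3* and *Sox1* was not tested.

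The expressed genes next to *Tubb3* show the same shift. *Tcf25*, its upstream neighbour, was at 52.3 FPKM in WT and 72.8, 80.0, 72.4 and 81.4 in D2A7, D1E6, E2E8 and E2G7. *Def8*, its downstream neighbour, was at 23.5 FPKM in WT and at 32.6 to 36.5 in the clones. *Fanca*, *Spire2* and *Afg3l1* were likewise above WT in all clones, E2E8 included. *Gas8* was the exception, at 7.95 FPKM in E2E8 and 9.85 in WT. *Tubb3* in E2E8 was thus below WT in a stretch where 5 of 6 neighbours were above it.

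**Figure D4:**
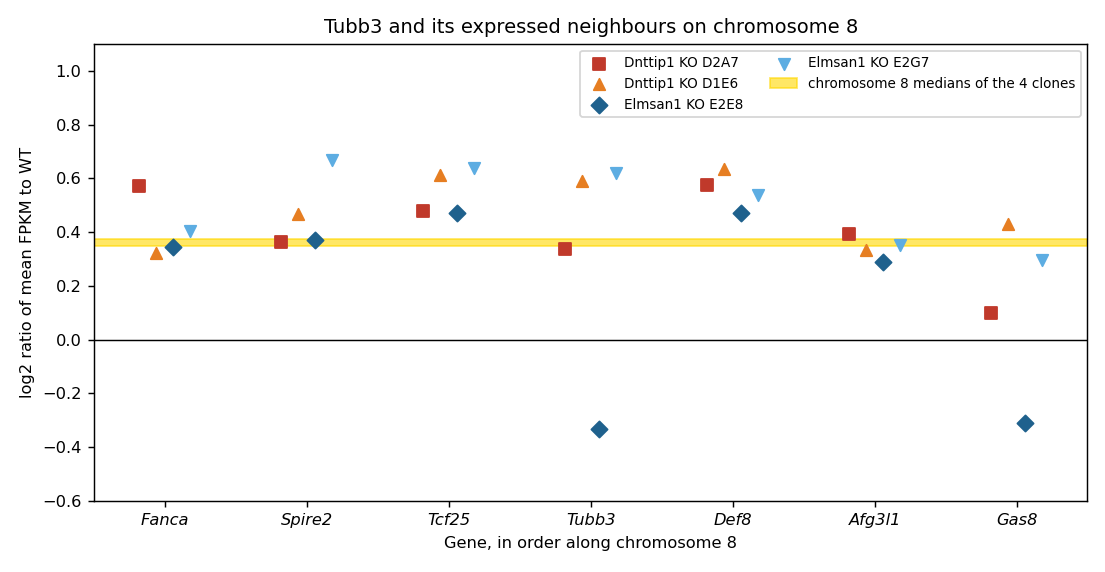
Log2 ratio of mean FPKM to WT (vertical axis) for *Tubb3* and 6 expressed neighbours in their order along chromosome 8, in each KO clone; the band spans the chromosome 8 medians of the 4 clones (0.35 to 0.37). Most points lie near or above the band, while *Tubb3* in E2E8 is at −0.33.

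The families of the called markers were examined next, from lists assembled by function. Of all genes tested, 3.26% were called higher and 3.25% lower in *Dnttip1* KO, and 2.74% and 3.68% in *Elmsan1* KO. An adjusted p under 0.05 was found for 9.47% and 10.5%. These shares apply to every list below. Of 13 intermediate filament genes, 12 were tested. In *Dnttip1* KO, *Nes* was the only one called. In *Elmsan1* KO, 2 were called higher and 2 lower: *Nes* and *Prph* rose (*Prph*, the peripherin of peripheral neurons, by 1.15, adjusted p = 0.0487), and the neurofilaments *Nefm* and *Nefl* fell by 1.42 and 1.01 (adjusted p = 0.0122 and 0.0241). The call of *Prph* was lost without WT replicate 2, either E2E8 library or E2G7 replicate 2 (0.75 to 1.13), and that of *Nefl* without either WT library (−1.03 and −0.99). The calls of *Nefm* and *Prph* were also lost with the correlation within clones estimated (adjusted p = 0.211 and 0.594), and those of *Nefm* and *Nefl* with all 10 libraries in a single fit (adjusted p = 0.117 and 0.244). *Vim*, the most abundant filament at 65.6 FPKM in WT, differed by −0.36 and −0.46 without a call. The median over the tested family was 0.46 in *Dnttip1* KO and −0.06 in *Elmsan1* KO.

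Of 8 β-tubulins, 7 were tested, and the median was 0.45 in *Dnttip1* KO and 0.15 in *Elmsan1* KO. *Tubb6* fell by 0.75 in *Dnttip1* KO (adjusted p = 0.0187), a call that was lost with all 10 libraries in a single fit (adjusted p = 0.177). In *Elmsan1* KO, 0 of 7 were called by limma or voom, and 4 had an unadjusted p under 0.05. *Tubb3* was not the leading β-tubulin of these cells: *Tubb5* was at 664 FPKM in WT, against 56.7 for *Tubb3*. Of 15 microtubule-associated proteins, 13 were tested. In *Dnttip1* KO, *Map6*, a stabiliser of microtubules, rose by 1.03 (adjusted p = 0.0539) and *Map2* was the only one called lower. In *Elmsan1* KO, 0 of 13 were called by limma or voom, while 5 had an unadjusted p under 0.05 and 4 an adjusted p under 0.05. *Map6* lost its call without either WT or either D2A7 library (0.91 to 1.05), with voom (adjusted p = 0.0974) and with all 10 libraries in a single fit (adjusted p = 0.149). *Mapre1*, the most abundant, was at 22.7 FPKM in WT and 17.2 to 22.3 in the clones.

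**Figure D5:**
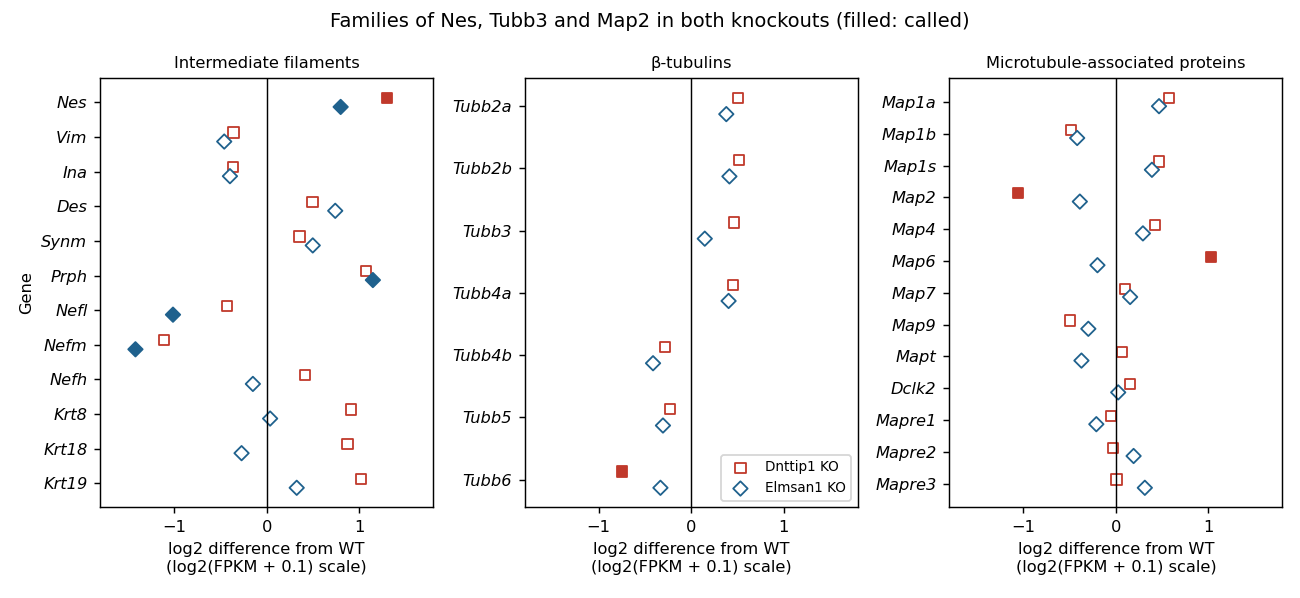
Difference from WT on the log2(FPKM + 0.1) scale (horizontal axes) of tested intermediate filaments, β-tubulins and microtubule-associated proteins in *Dnttip1* KO (squares) and *Elmsan1* KO (diamonds), with called genes filled. *Nes* is called higher in both knockouts, while *Map2* is called, lower, in *Dnttip1* KO (−1.05) and not in *Elmsan1* KO (−0.39).

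Relatives of the SOX and HES markers gave few calls. Of 8 SOXB and SOXC genes, 7 were tested. In *Dnttip1* KO, 0 were called by limma or voom, and *Sox2* alone had an unadjusted p under 0.05 (−0.38, adjusted p = 0.0157). In *Elmsan1* KO, *Sox21*, a SOXB2 repressor, fell by 2.05 (adjusted p = 0.00227). In *Dnttip1* KO *Sox21* was at −1.10 (adjusted p = 0.234), where the clones split. It was at 2.63 FPKM in WT, 2.00 in D2A7 and 0.667 in D1E6. Set singly against WT, D1E6 differed by −1.82 (adjusted p = 2.26e-05) and D2A7 by −0.37 (adjusted p = 0.0325). *Sox2*, the SOXB1 factor shared by mESCs and neural progenitors, was at 186 FPKM in WT and 134 to 147 in the clones. Of 9 HES and HEY genes, 4 were tested and 0 called by limma or voom in either knockout, with 1 at an unadjusted p under 0.05 in each. *Hes1*, the most abundant at 30.7 FPKM in WT, was at −0.44 in *Dnttip1* KO (adjusted p = 0.0433).

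Other genes of neural progenitors and neurons were read in the same way, against 3.26% of all genes called higher and 3.25% lower in *Dnttip1* KO. In *Elmsan1* KO these shares were 2.74% and 3.68%. Of 29 further progenitor genes, 21 were tested. In *Dnttip1* KO, 1 was called higher, *Notch1*, the receptor upstream of HES5 (0.79, adjusted p = 0.0467), and 2 were called lower. In *Elmsan1* KO, 0 were higher and 6 lower, among them *Otx2*, *Pou3f2* and *Sox21* at −2.80, −2.20 and −2.05. The call of *Pou3f2* was lost with the correlation within clones estimated (adjusted p = 0.277). The median over the tested list was −0.36 in *Dnttip1* KO and −0.38 in *Elmsan1* KO. By clone against WT, *Otx2*, *Pou3f2* and *Sox21* were at −1.90, −2.20 and −1.82 in D1E6, and at −0.02, −0.38 and −0.37 in D2A7. *Otx2* was at −3.72 in E2E8 and −1.87 in E2G7. Of 33 further neuronal genes, 27 were tested in *Dnttip1* KO, with 0 higher and 5 lower, and 26 in *Elmsan1* KO, with 1 higher and 4 lower. *Nsg2*, a vesicle protein, and *Celf4*, an RNA-binding protein of neurons, fell by 1.34 and 1.15 in *Dnttip1* KO, and *Dpysl2*, a collapsin response mediator, rose by 0.63 in *Elmsan1* KO. With the correlation within clones estimated, the calls of *Nsg2* and *Celf4* in *Dnttip1* KO were lost (adjusted p = 0.248 and 0.217). *Stmn2*, a tubulin-binding protein of growth cones and the most abundant of this list at 90.2 FPKM in WT, fell by 0.68 and 0.70 in the knockouts. These lists were chosen with results of these data known, so their direction is not independent evidence.

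Of 24 proneural and commitment factors, 14 stayed under 0.1 FPKM in all libraries, and 8 and 9 were tested. *Ebf1*, an early B cell and neuronal factor, rose by 0.61 in *Dnttip1* KO (adjusted p = 0.0081) and was already at 48.2 FPKM in WT, and *Eomes* rose by 0.70 in *Elmsan1* KO (adjusted p = 0.00905). Of 12 repressors of neuronal genes, all were tested. *Id1*, an inhibitor of bHLH factors, rose by 1.29 in *Dnttip1* KO (adjusted p = 0.0058), *Rcor2*, a corepressor of REST, fell by 0.62 and 0.61 in the knockouts, and *Id4* fell by 0.71 in *Elmsan1* KO. *Ptbp1*, a splicing repressor of neuronal exons, was at 104 FPKM in WT and 93.7 to 114 in the clones. Without single libraries, calls were lost for *Notch1* (2 WT libraries and D2A7 replicate 1, 0.74 to 0.79), *Ebf1* (D1E6 replicate 2, 0.58), *Otx2* (either WT library, −2.81 and −2.78), *Id4* (WT replicate 1, −0.63) and *Rcor2* (−0.58 to −0.52). With all 10 libraries in a single fit, *Id1* in *Dnttip1* KO and *Id4* in *Elmsan1* KO lost theirs (adjusted p = 0.144 and 0.114).

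Markers of other states and cell types were measured beside the 9 genes. Of 8 primed pluripotency genes, 7 were tested and 3 were called lower in each knockout, against 3.25% and 3.68% of all genes. Among them were *Fgf15* (−1.41 and −1.54) and *Cdh2* (−1.14 and −1.40). *Cdh2* and *Otx2* are also on the list of further progenitor genes, so their calls are counted there too. The *Elmsan1* KO call of *Fgf15* was lost with the correlation within clones estimated (adjusted p = 0.222). Of 10 mesoderm and endoderm genes, 5 were tested, and *T*, the brachyury factor, was called lower in both, at −1.16 and −0.95 from a WT level of 0.591 FPKM; its calls were lost without single libraries (−1.10 to −0.80) and with the correlation within clones estimated (adjusted p = 0.308 and 0.464). Of 8 neural crest genes, 5 were tested and 0 called by limma or voom in either knockout, with 1 and 3 at an unadjusted p under 0.05, and *Ngfr* led at 14.9 FPKM in WT. Of 8 glial genes, 4 were tested, and *Aldh1l1*, a folate enzyme of astrocytes, rose by 0.88 and 1.17 while *Gfap*, *Aqp4* and *S100b* stayed under 0.1 FPKM throughout. *Aldh1l1* lies on chromosome 6, whose median log2 difference from WT was −0.08 in D2A7, 0.42 in D1E6, 0.39 in E2E8 and 0.29 in E2G7. Its call in *Dnttip1* KO was lost with chromosomes centred (0.72, adjusted p = 0.087) and that in *Elmsan1* KO without WT replicate 2 (1.08, adjusted p = 0.163). The summed level of the glial list was 17.3 to 18.5 FPKM in WT, 22.0 to 25.7 in *Dnttip1* KO and 22.4 to 32.8 in *Elmsan1* KO. The part of these cell states in the marker values was not tested.

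Among 12214 other genes that averaged 1 FPKM or more, the gene whose log2 level followed each marker most closely over the 10 libraries was taken as a description of its pattern. For *Nes* it was *Syde2* (r = 0.994), at 10.0 FPKM in WT, 11.6 in E2E8, 13.9 in D1E6, 14.2 in E2G7 and 16.6 in D2A7. For *Map2* it was *Tfap2c* (r = 0.981), at 36.6 FPKM in WT and 23.2 in D2A7. *Tubb3* was followed by *Dhx8* (r = 0.980), *Msi1* by *Dag1* (r = 0.974) and *Sox11* by *Mapk8ip1* (r = 0.941). With 2 libraries of each of 5 lines, such values are high for many genes.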

How the data were processed

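RNA-seq of WT mESCs and of 4 KO clones (2 libraries each) was analysed from the FPKM values that the authors deposited. The authors sequenced stranded total RNA, mapped it to NCBIM37, counted reads per gene with HTSeq, and normalized counts by TMM in edgeR 3.16.5 before voom and limma. How the deposited FPKM were scaled is not given in the sources used here. The methods name GENCODE vM20, but 97.2% of the gene identifiers matched GENCODE vM1, used here for positions and exon lengths. FPKM times exon length gave whole fragments (within 0.02) for 98.1% to 98.4% of values under 100 fragments, which set the depth and fed a voom alternative. *Sox1*, not in vM1, took its length from RefSeq.

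Libraries were scaled by median ratios over 11270 genes (factors 0.965 to 1.01). Genes that reached 0.1 FPKM in 2 or more libraries entered limma 3.58.1 (R 4.3.3) as log2(FPKM + 0.1) (moderated two-sided test, variance trend, Benjamini-Hochberg adjustment over all genes tested); fold changes on this scale understate changes of low genes. Calls needed an unadjusted p under 0.01 and a 1.5-fold difference, the rule of the study's methods. The fits were tested on simulated data in which all libraries were drawn independently, so that check does not cover the correlation within clones. KO clones were pooled by genotype, compared with each other, and set against WT singly in a fit of all libraries. Because libraries of a clone are not independent, a fit with the correlation within clones was among the alternatives, as were other pseudocounts, filters, scalings, chromosome centring, a replicate block and leaving out each library. Exact permutation tests and figures used Python 3.11.15 with scipy 1.17.1 and matplotlib 3.10.9.

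The 9 markers and the lists were chosen with earlier results of these data known. From each list the text names up to 3 genes called in each direction with the largest mean change and the gene highest in WT.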

Additional observations from a re-analysis of the deposited data

Results flagged for a closer look

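Clones of the same knockout differed in 8 of the marker values, by a direct test of 1 clone against the other (limma, adjusted p under 0.05 over all genes tested), a threshold that 40.8% and 50.7% of all genes also passed. Between the *Dnttip1* KO clones, D2A7 minus D1E6, the log2 difference was 0.56 for *Nes*, 1.24 for *Sox1*, −0.38 for *Sox11* and −0.26 for *Tubb3*. Between the *Elmsan1* KO clones, E2E8 minus E2G7, it was −0.58 for *Nes*, −0.95 for *Tubb3*, 0.37 for *Map2* and 0.28 for *Msi1*. *Nes* and *Tubb3* differed within both knockouts. Both clones of each pair carry the same knockout, so these are differences between clones.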

How the results depend on the processing

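Most values of the markers kept their direction and their side of the threshold: counted over every alternative and comparison, 641 did so, 19 lost a call, 13 gained one and 20 changed sign. Values that were not called and stayed so are among the 641, so that number does not measure how well calls held. The call of *Nes* in *Elmsan1* KO was lost in 7 alternatives and kept in 9. With a pseudocount of 1, the genes called fell to 540 in *Dnttip1* KO, 525 in *Elmsan1* KO and 79 between the knockouts, to 1036 and 846 between the *Dnttip1* and *Elmsan1* KO clones, and to 1324, 789, 1287 and 709 in D2A7, D1E6, E2E8 and E2G7 against WT. With a mean of at least 1 FPKM, they were 664, 603, 112, 1384 and 1254 in the first 5 comparisons, since fewer genes were tested. With the correlation within clones, they were 538, 486 and 54 in the first 3. Between the knockouts, 4 genes passed with an adjusted p under 0.05 and a fold change of at least 1.5.

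Markers called in *Dnttip1* KO went from 2 to 1 with a pseudocount of 1 or a mean of at least 1 FPKM. In *Elmsan1* KO they went from 1 to 0 with voom or an adjusted p, and to 2 with chromosomes centred. Between the knockouts they went from 1 to 0 with a pseudocount of 1, a mean of at least 1 FPKM, an adjusted p or the correlation within clones. Between D2A7 and D1E6 they went from 1 to 0 with a pseudocount of 1 or a mean of at least 1 FPKM, between E2E8 and E2G7 from 1 to 2 with chromosomes centred or voom, and in E2E8 against WT from 0 to 2 with chromosomes centred. With a pseudocount of 1, calls were also lost for *Sox1* between D2A7 and D1E6 (0.50) and in D2A7 (0.37) and for *Map2* in D1E6 (−0.54). Causes were not tested.

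With chromosomes centred, the sign changed for *Sox1* in *Dnttip1* KO (−0.14), *Tubb3* in *Elmsan1* KO (−0.21) and D2A7 (−0.032), and *Sox3* in D1E6 (0.024) and E2G7 (0.046), and with FPKM as deposited for *Msi1* between the knockouts (0.0018).

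Leaving out 1 library at a time, genes called ranged from 599 to 1077 in *Dnttip1* KO and from 622 to 1146 in *Elmsan1* KO, with 599 and 622 without WT replicate 1 and 688 and 682 without WT replicate 2. Between the knockouts they ranged from 105 to 507, with 127 and 108 without D2A7 replicates 1 and 2, 105 and 117 without those of E2E8, and 507 and 459 without those of D1E6. Markers called ranged from 0 to 1 in *Elmsan1* KO and in E2E8, from 1 to 2 between clones of either knockout, and from 2 to 3 in D1E6 and in E2G7. Values that changed sign then ranged from −0.053 to 0.053 for *Msi1* between the knockouts, −0.27 to 0.34 for *Sox3* and −0.014 to 0.32 for *Tubb3* in *Elmsan1* KO, −0.42 to 0.024 for *Map6* in *Elmsan1* KO, −0.021 to 0.18 for *Sox3* between E2E8 and E2G7, and, against WT, −0.21 to 0.065 for *Sox11* in E2E8 and, for *Sox3*, −0.35 to 0.18 in D1E6, −0.21 to 0.16 in E2E8 and −0.33 to 0.11 in E2G7.

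Libraries with the same replicate number did not deviate together: the correlation of their deviations between lines ranged from −0.139 to 0.192, so the numbers do not pair them. With the replicate block, 171 genes were called between the knockouts against 268 without it, and 0 markers in *Elmsan1* KO. The depth limits *Sox3*, *Pax6* and *Hes5*, which had at most 25 fragments per library.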
